A study of Mus musculus with 2 samples.

Results

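Erythroid genes other than the globins were followed in RNA from the hindbrain of mouse embryos. Members were chosen by symbol from genes of heme synthesis, erythroid transcription factors, the red cell membrane and red cell enzymes. The rule used no measured values, but members were chosen with earlier results of these data known. Of 33 listed symbols, 32 were matched by gene identifier to rows of both gene tables, out of 43346 annotated genes, and Ahsp is not analysed here. The series held 1 group of 2 biological replicates, a pool of 69 embryos (replicate 1) and a pool of 51 embryos (replicate 2). Embryos were of strain B6NCrl at 10.5 days, with both sexes pooled and described as healthy, and carried no named treatment or allele. The input was 10 ng of RNA longer than 200 bases, with synthetic spike-in RNAs added. Because only 1 group exists, no comparison between conditions was possible, and the spread given is that between these pools, which carry 1 shared donor ID and whose technical part is unknown. Values are TPM, a share of all transcripts corrected for length, as deposited by the authors, with the mean ± SD of the 2 libraries (n = 2). The spike-ins belong to that total, with a share of 13.0% for replicate 1 against 7.82% for replicate 2. The TPM of all other genes is thereby lowered more in replicate 1. Small TPM differences between the pools are therefore not read as differences in RNA.

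Red blood cells are made around hemoglobin, in which globin chains hold the iron compound heme. Heme is built from glycine and succinyl-CoA by a chain of enzymes that starts and ends in the mitochondrion, and its iron enters the cell bound to transferrin. In the mouse embryo at midgestation, blood vessels of the head carry large nucleated primitive erythroid cells from the yolk sac, which still make RNA. A family of factors led by Gata1, Klf1 and Tal1 controls the genes of this lineage. Several members are also used outside it: most heme enzymes work in every cell, Tal1 and Lmo2 are known in endothelium, and Tal1 in some neurons. In bulk tissue, fewer cells of a type and less RNA per cell cannot be told apart.

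The annotated genes held 38170078 counts in replicate 1 and 36382223 in replicate 2, of which the 32 members took 54501 counts (0.143%) and 53743 counts (0.148%). Globins, which mark the lineage, summed to 18702 TPM in replicate 1 and to 20170 TPM in replicate 2. The members together summed to 873.2 TPM in replicate 1 and 964.6 in replicate 2. That was 4.67% (replicate 1) and 4.78% (replicate 2) of the globin sum. The unequal spike-in share enters both TPM sums but cancels in these percentages. The tissue label was met by 7 of 8 hindbrain markers at 1 TPM or more in both libraries. The exception was Egr2, a factor of rhombomeres 3 and 5, with 35 counts in replicate 1 and 118 in replicate 2. Markers of other blood and vessel cells were present as well: 10 of 10 endothelial, 9 of 10 macrophage and 7 of 10 megakaryocyte and platelet genes reached 1 TPM in both libraries. Of all annotated protein-coding genes, 58.8% did so.

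All 32 members were at 1 TPM or more in both libraries, where 58.8% of annotated protein-coding genes were. Their levels ran from 1.55 ± 0.325 TPM for Zfpm1 to 128 ± 3.15 TPM for Epb41, with a median of 16.4 TPM. The median was 16.8 TPM for all 14291 detected genes and 19.7 TPM for the detected protein-coding genes. There were 14 members at 20 TPM or more, 12 from 5 to 20 TPM and 6 below 5 TPM. Between the pools, log2 ratios of replicate 1 over replicate 2 were taken from counts scaled by TMM over all genes. They ran from -0.63 to 1.21 with a median of -0.03, beside -0.01 for the 14385 genes tested. The ratio was within 0.5 of 0 for 27 of 32 members and for 82.5% of tested genes. Scaling by spike-ins instead moved the median of all tested genes by -0.76 (log2), so every direction below is relative to the typical gene. With 1 library on each side these ratios carry no p-value, and the intervals given below (95%, exact) cover counting error only.

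**Figure D1:**
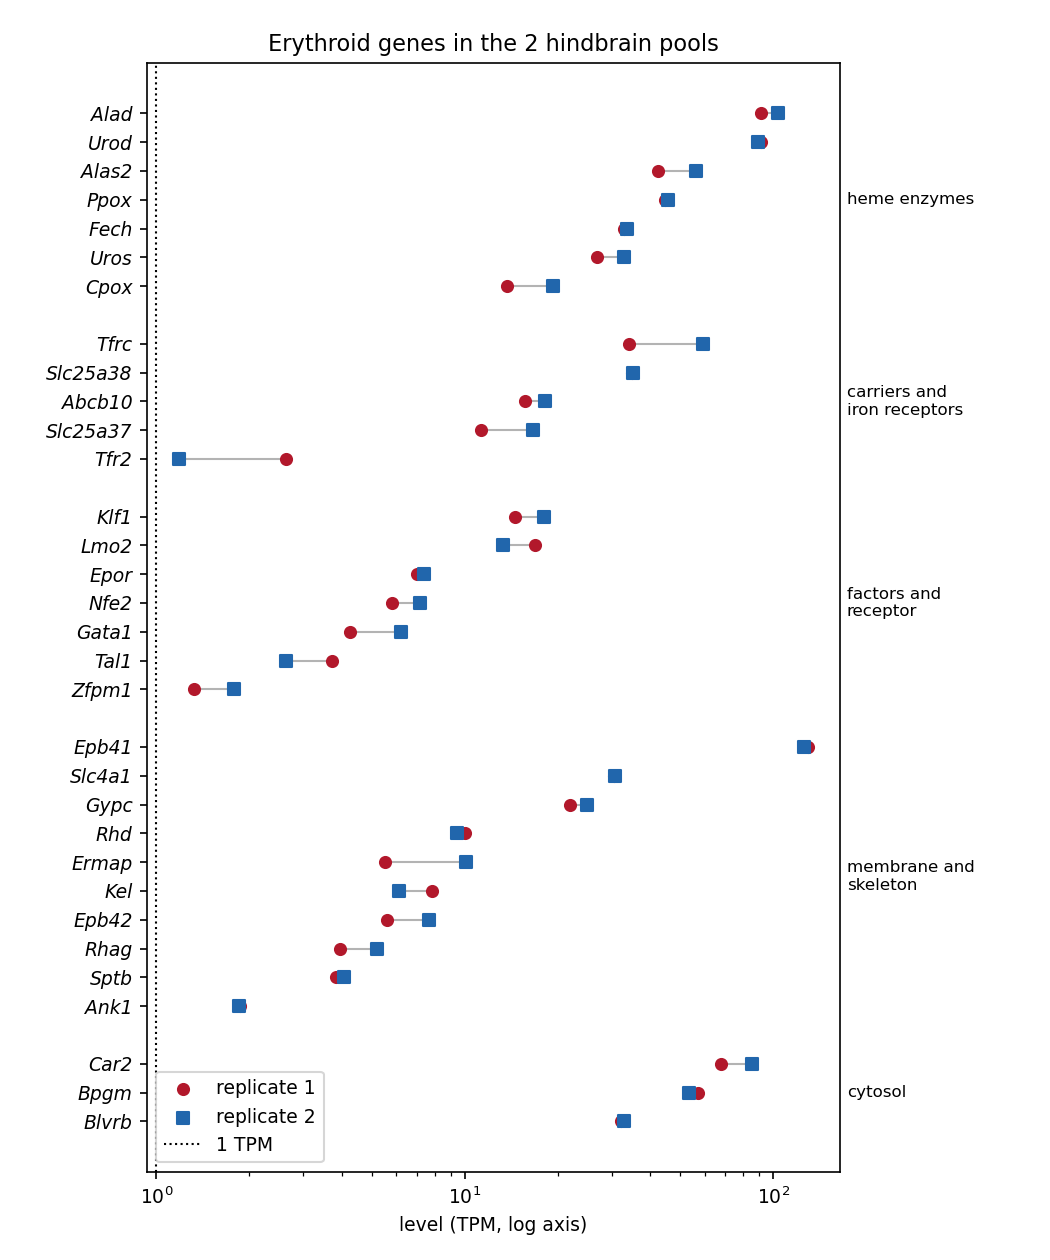
Level of each of the 32 members in TPM on a log axis, grouped by role, with replicate 1 as circles and replicate 2 as squares. All points lie to the right of the dotted line at 1 TPM, from Zfpm1 and Tfr2 at the low end to Epb41 at the high end.

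All 7 heme enzymes were above 10 TPM in both libraries, with a summed level of 343.0 TPM in replicate 1 TPM in replicate 1 and 380.5 in replicate 2 in replicate 2. Alas2, the erythroid 5-aminolevulinate synthase that starts the pathway (chromosome X, 150547375 to 150570638, mm10), was at 42.3 TPM in replicate 1 and at 56.05 TPM in replicate 2. Its log2 ratio of -0.29 had a counting interval from -0.38 to -0.21. The housekeeping form Alas1, from the list of other iron and heme genes, was at 38.88 TPM in replicate 1 and 33.15 in replicate 2, so the level of Alas2 relative to Alas1 was 1.09 in replicate 1 and 1.69 in replicate 2. Alas2 was lower in replicate 1 and Alas1 higher.

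Sequence elements for iron control are shown for both members in which a search for a fixed pattern found them. Elements that depart from the pattern would be missed. An iron-responsive element is a hairpin in an untranslated region of an mRNA with a bulged C and a CAGTGN loop, bound by iron regulatory proteins. A 27-base search with 5 upper pairs and at least 4 of 5 lower pairs found it in untranslated regions of 17 of 21901 protein-coding genes (0.0776%) of GENCODE M21, and in 2 of 32 members, Alas2 and Tfrc. Capitals mark the 5 fixed bases of the loop, sequences run 5′ to 3′ in DNA letters, and Fth1, the ferritin heavy chain, is set beside them as a gene of the iron list with the element in its 5′ untranslated region.
Alas2 (5′ untranslated region, chromosome X): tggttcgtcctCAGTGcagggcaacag
Tfrc element 1 (3′ untranslated region, chromosome 16): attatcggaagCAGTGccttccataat
Tfrc element 2: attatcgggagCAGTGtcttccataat
Tfrc element 3: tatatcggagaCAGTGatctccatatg
Tfrc element 4: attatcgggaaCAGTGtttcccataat
Fth1 (5′ untranslated region, chromosome 19): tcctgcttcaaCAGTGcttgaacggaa
The 4 Tfrc elements found had 5 of 5 lower pairs, and those of Alas2 and Fth1 had 4 of 5. The elements lay at position 85 of the Alas2-201 transcript and at positions 3316, 3695, 3760 and 3807 of the 4890-base Tfrc-201 transcript.

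Of the enzymes that follow, Alad and Urod had the most RNA. Alad, which joins 2 molecules of aminolevulinate to porphobilinogen, was at 91.06 TPM in replicate 1 and 103.7 in replicate 2 (97.4 ± 8.92). Urod, the decarboxylase of uroporphyrinogen, was at 91.58 TPM in replicate 1 and 89.45 in replicate 2 and so near to Alad that their order reversed between the pools. Uros, which closes the porphyrin ring, was lower, at 26.89 TPM in replicate 1 and 32.93 in replicate 2. These are enzymes that every cell uses, and their RNA cannot be assigned to red cells here.

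Cpox, the oxidase of coproporphyrinogen, had the lowest level of the 7, with 13.67 TPM in replicate 1 TPM in replicate 1 and 19.35 in replicate 2 in replicate 2. It also had the lowest ratio of the group, -0.44 (interval -0.55 to -0.32). Ppox, the next oxidase, was at 44.59 TPM in replicate 1 and 45.53 in replicate 2, and Fech, the ferrochelatase that inserts iron, at 32.94 TPM in replicate 1 and 33.46 in replicate 2. For both the counting interval of the ratio included 0. Exons of Ppox share 791 of 4515 bases with B4galt3 on the opposite strand, which was at 64.69 TPM in replicate 1 and 59.3 in replicate 2, and those of Alas2 share 311 of 2403 bases with Apex2, at 21.69 TPM in replicate 1 and 22.82 in replicate 2. Whether the counting used strand is not given in the sources used here, so the values of Ppox and Alas2 are uncertain to that extent.

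Carriers and iron receptors held 3 of the 5 members whose ratio was more than 0.5 from 0. Tfrc, the transferrin receptor of dividing and heme-making cells, had 33.98 TPM in replicate 1 TPM in replicate 1 and 59.03 in replicate 2 in replicate 2, on 3857 (replicate 1) and 5395 (replicate 2) counts. The ratio was -0.58, with an interval from -0.64 to -0.52. Slc25a37, mitoferrin 1, which takes iron into the mitochondrion of erythroid cells, was also lower in replicate 1, at 11.27 against 16.63 TPM in replicate 2 (ratio -0.52, interval -0.62 to -0.42). Slc25a38, a mitochondrial carrier needed for the start of heme synthesis, was at 34.76 TPM in replicate 1 and 35.08 in replicate 2. Abcb10, a mitochondrial transporter that stabilises mitoferrin 1, was at 15.69 TPM in replicate 1 and 18.22 in replicate 2.

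Tfr2, a second transferrin receptor that senses iron in liver and erythroid cells, was the only member past 2-fold by TMM scaling. It was at 2.64 TPM in replicate 1 and at 1.18 TPM in replicate 2, on 202 and 81 counts, a 2.31-fold ratio (log2 1.21, interval 0.85 to 1.62). Of all tested genes 3.48% were at least 2-fold higher in replicate 1, beside 1 of 32 members, and 0.862% were at least 2-fold higher in replicate 2, beside 0 of 32. Tfr2 lies 258 bases from Actl6b, a neuronal gene on the same strand, which was at 36.64 TPM in replicate 1 and 7.93 in replicate 2 (log2 2.18). All 8 genes of a neuron list were higher in replicate 1 too, with summed levels of 1782 TPM in replicate 1 and 1129 in replicate 2, and the part of either in the Tfr2 value was not tested. With spike-in scaling the Tfr2 ratio was 0.45, no longer past 2-fold.

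Transcription factors were low to moderate. Klf1, which binds CACC sites and drives beta-globin genes, was at 14.54 TPM in replicate 1 and 18.06 in replicate 2 (16.3 ± 2.49). Gata1, the zinc finger factor without which erythroid cells do not mature, was at 4.24 TPM in replicate 1 and at 6.22 TPM in replicate 2, on 201 and 272 counts. Its ratio of -0.52 had an interval from -0.80 to -0.26. Zfpm1, the Gata1 partner also called FOG-1, had 1.32 TPM in replicate 1 and 1.78 in replicate 2, with 117 and 142 counts the fewest of any member apart from Tfr2 in replicate 2. Klf1 and Gata1 thus differed in the same direction, with Klf1 above Gata1 by 3.43-fold in replicate 1 and by 2.90-fold in replicate 2.

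Tal1 and Lmo2, parts of the complex that bridges Gata1 to E-box sites, were higher in replicate 1 by TMM scaling and lower by spike-in scaling (-0.40 and -0.36). Tal1 was at 3.7 TPM in replicate 1 and at 2.64 TPM in replicate 2 (ratio 0.36, interval 0.13 to 0.61), and Lmo2 at 16.95 TPM in replicate 1 and 13.3 in replicate 2 (0.40, interval 0.23 to 0.58). Both genes are known in endothelium, whose 10 markers had a median ratio of 0.03 and summed levels of 197.3 TPM in replicate 1 and 223.2 in replicate 2. Tal1 is also known in neurons with Gata2 and Gata3. Of 8 tested genes of that list 5 were at least 2-fold higher in replicate 1, beside 3.48% of all tested genes. The other 3, Gata2, Gata3 and Tal2, were at -0.09, -0.36 and -0.94, with Tal2 on 53 counts in replicate 1 and 97 in replicate 2. The part of these cells in the Tal1 and Lmo2 values was not tested. Gata2 itself was above Gata1, whose level was 0.475 of that of Gata2 in replicate 1 and 0.626 in replicate 2.

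Nfe2, the p45 subunit of a factor that acts on globin enhancers, was at 5.81 TPM in replicate 1 and 7.18 in replicate 2. Epor, the erythropoietin receptor, was at 7.01 TPM in replicate 1 and 7.35 in replicate 2 with 328 and 308 counts. Neither had a ratio whose counting interval lay clear of 0.

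Promoters of members were searched for the GATA words AGATAA and TGATAA on both strands, which read TTATCT and TTATCA on the other strand. RefSeq promoters (GRCm38.p6) were at hand for 24 members, with 33 promoters in all. In the 250 bases before the start, 12 of 33 member promoters (36.4%) held a GATA word, as did 16.6% of all 32851 promoters. CACC words, the kind read by Klf1 (CCACACCC, CCGCACCC and CCACGCCC), were in 12.1% of member promoters and 9.13% of all. E-box words (CAGATG and CAGCTG) were in 15.2% and 25.5%. These letters are a description and not evidence of binding, and members with several promoters count more than once. The 8 members below had a GATA word, in capitals, in the 100 bases that end before the more upstream of the RefSeq and GENCODE starts.
Alas2 (chrX:150547275-150547374, plus strand): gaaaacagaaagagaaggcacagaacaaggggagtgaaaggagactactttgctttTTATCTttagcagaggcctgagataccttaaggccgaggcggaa
Cpox (chr16:58670108-58670207, plus strand): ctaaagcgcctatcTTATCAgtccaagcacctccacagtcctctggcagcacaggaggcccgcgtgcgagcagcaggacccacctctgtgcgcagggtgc
Klf1 (chr8:84901828-84901927, plus strand): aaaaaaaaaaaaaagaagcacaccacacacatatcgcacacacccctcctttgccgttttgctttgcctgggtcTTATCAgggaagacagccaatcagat
Epor (chr9:21963577-21963676, minus strand): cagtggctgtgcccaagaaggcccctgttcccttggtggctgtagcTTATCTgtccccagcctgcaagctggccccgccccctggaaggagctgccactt
Rhag (chr17:40811026-40811125, plus strand): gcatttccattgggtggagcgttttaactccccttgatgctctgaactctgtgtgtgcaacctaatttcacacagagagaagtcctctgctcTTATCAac
Rhd (chr4:134864436-134864535, plus strand): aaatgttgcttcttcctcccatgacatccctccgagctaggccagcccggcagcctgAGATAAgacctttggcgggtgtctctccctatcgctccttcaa
Kel (chr6:41704340-41704439, minus strand): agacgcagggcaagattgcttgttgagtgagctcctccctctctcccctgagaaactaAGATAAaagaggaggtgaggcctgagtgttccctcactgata
Ermap (chr4:119190012-119190111, minus strand): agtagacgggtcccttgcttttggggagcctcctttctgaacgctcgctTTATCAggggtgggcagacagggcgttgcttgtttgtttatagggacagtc
The word stood 44 bases before the end of the Alas2 window and 8 bases before the end of that of Rhag. The 250 bases before the start of Gata1 held neither word.

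Membrane and skeleton genes ranged from Ank1 to Epb41 in level. Slc4a1 encodes band 3, the anion exchanger and a major protein of the red cell membrane, and was at 30.39 TPM in replicate 1 and at 30.73 TPM in replicate 2, on 3652 and 3242 counts. Ank1, the ankyrin that anchors band 3 to spectrin, was at 1.87 TPM in replicate 1 and 1.85 in replicate 2, so that Slc4a1 RNA was 16.3 times as abundant in replicate 1 and 16.6 times in replicate 2. Sptb, beta-spectrin, was at 3.82 TPM in replicate 1 and 4.05 in replicate 2.

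Epb41, protein 4.1R, which ties spectrin to actin, had the highest level of all members at 130.2 TPM in replicate 1 and 125.7 in replicate 2. It is also made in neurons and other cells, and stood above 90.8% of detected genes. Epb42, protein 4.2 of the band 3 complex, was at 5.6 TPM in replicate 1 and at 7.66 TPM in replicate 2 (ratio -0.44, interval -0.65 to -0.24). Gypc, glycophorin C, a sialoglycoprotein that binds 4.1R, was at 22.01 TPM in replicate 1 and 24.83 in replicate 2.

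Blood group genes had levels from 4.57 to 9.71 TPM. Rhd, the single Rh blood group gene of mouse, was at 10.01 TPM in replicate 1 and 9.42 in replicate 2. Rhag, the partner that Rh protein needs to reach the membrane, was at 3.93 TPM in replicate 1 and 5.21 in replicate 2, and Rhd exceeded it by 2.55-fold in replicate 1 and by 1.81-fold in replicate 2. Kel, the Kell endopeptidase, was at 7.81 TPM in replicate 1 and 6.1 in replicate 2 with 306 and 271 counts. Ermap, an erythroid membrane protein of the immunoglobulin superfamily, was at 5.53 TPM in replicate 1 and at 10.08 TPM in replicate 2. Its ratio in counts was -0.63 (interval -0.83 to -0.43), the lowest of the 32.

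Cytosolic members were all above 30 TPM. Car2, carbonic anhydrase 2, which turns carbon dioxide into bicarbonate for band 3, was at 67.61 TPM in replicate 1 and 85.5 in replicate 2 (ratio -0.27, interval -0.34 to -0.20). Bpgm, which makes the 2,3-bisphosphoglycerate that lowers the oxygen affinity of adult hemoglobin, was at 57.22 TPM in replicate 1 and 53.45 in replicate 2. Blvrb, biliverdin reductase B, was at 32.23 TPM in replicate 1 and 32.87 in replicate 2.

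**Figure D2:**
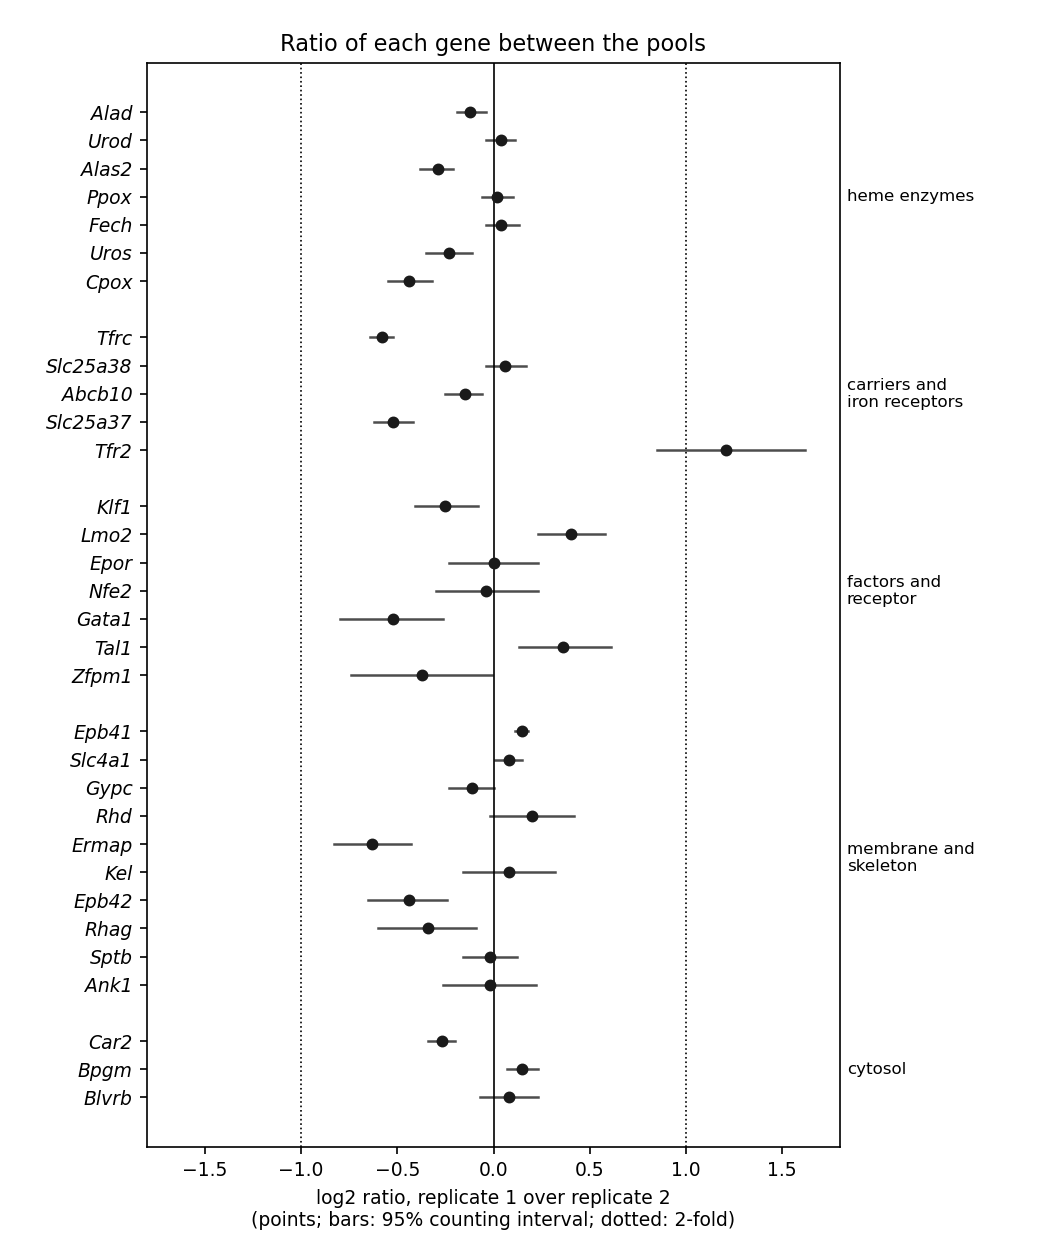
Log2 ratio of replicate 1 over replicate 2 for each member (points) with its 95% counting interval (bars), by role. With TMM scaling Tfr2 alone lies past the dotted 2-fold lines, and Ermap, Tfrc, Slc25a37 and Gata1 lie between -0.63 and -0.52.

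In all, with TMM scaling 19 of 32 members were higher in replicate 2 and 13 in replicate 1, beside 51.6% of tested genes higher in replicate 2. Spike-in scaling moved the median of all tested genes by -0.76 (log2), and 31 of 32 members were then higher in replicate 2. The share of all tested genes higher in replicate 2 under that scaling is not given here, so this count says nothing particular to the members. The counting interval lay below 0 for 14 of 32 members and above 0 for 6, beside 33.1% and 30.3% of tested genes. The 20 members together are close to the background, since 63.4% of all tested genes had an interval on either side of 0. The spread between the pools was larger than counting error for genes in general, with a biological coefficient of variation of 0.203 over 14385 genes (edgeR). Over the 7 tested globins the median ratio with TMM scaling was 0.04, and 5 were higher in replicate 1. Among them, Hbb-bh1, an embryonic beta globin, was at 2847 TPM in replicate 1 and 3849 in replicate 2 (ratio -0.37). Hbb-y was at 6598 TPM in replicate 1 and 7328 in replicate 2 (-0.09), and the adult Hbb-bt at 330.8 TPM in replicate 1 and 178.1 in replicate 2 (0.96). The alpha-type globins Hba-x, which is embryonic, and Hba-a2 had ratios of 0.0 and 0.16. Hbb-bt and Hbb-bs are near-identical copies, so reads could be split between them. Hbb-y RNA was 156 times as abundant as that of Alas2 in replicate 1 and 131 times in replicate 2.

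Other genes of the lineage, on lists that are not independent of earlier results of these data, gave the following values. Of all annotated protein-coding genes, 58.8% were detected in both libraries. Of 12 further heme and iron genes 12 were detected in both libraries, with a median ratio of -0.08, led by the ferritins Ftl1 (5346 ± 603 TPM) and Fth1 (1332 ± 37.1 TPM). All 17 further factors were detected, and 2 were at least 2-fold higher in replicate 1, beside 3.48% of all tested genes. These were Bcl11a at 43.76 TPM in replicate 1 and 17.4 in replicate 2 and Cbfa2t3 at 5.25 TPM in replicate 1 and 2.43 in replicate 2. Which cells gave the RNA of Bcl11a and Cbfa2t3 was not tested. Of 17 further membrane genes 15 were detected in both libraries, with Slc2a1, the glucose transporter, at 132.0 TPM in replicate 1 and 204.8 in replicate 2. Of 17 late erythroid and cytosolic genes 16 were matched and 15 detected, with a median ratio of -0.15, Prdx2 at 1165 TPM in replicate 1 and 1048 in replicate 2, and Smim1 at 20.65 TPM in replicate 1 and 27.69 in replicate 2.

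Lists of neighbouring cell types had a range of ratios. Endothelial genes had a median of 0.03, near the -0.03 of the members, with 10 of 10 within 0.5 of 0. All 10 macrophage genes were higher in replicate 1, with a median of 0.63 and C1qb at 30.67 TPM in replicate 1 and 19.77 in replicate 2. Megakaryocyte and platelet genes had a median of 0.40, with 6 of 8 tested higher in replicate 1 and the platelet factor Pf4 at 56.44 TPM in replicate 1 and 42.36 in replicate 2. Blood progenitor genes had a median of 0.18 over 6 tested, led by Cd34, which endothelium also expresses, at 42.92 TPM in replicate 1 and 49.59 in replicate 2. Among the genes of these lists that did not reach 1 TPM in both libraries were Gp1ba, Gp6, Gfi1, Flt3 and Fcgr1.

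**Figure D3:**
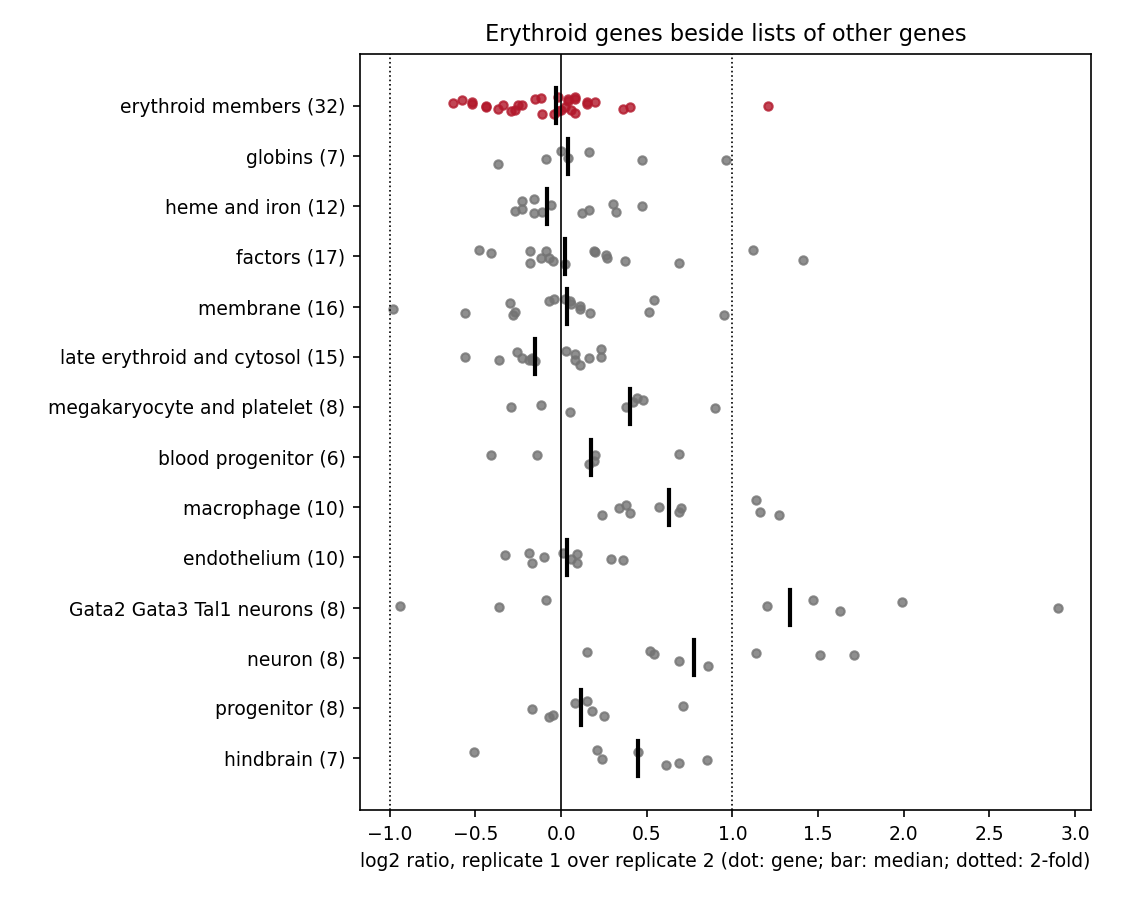
Log2 ratio of replicate 1 over replicate 2 for each tested gene (dots) in the erythroid members and in lists of other genes (TMM scaling), with the median as a bar and the number of tested genes in brackets. The erythroid median lies at -0.03, the endothelial median at 0.03, the macrophage median at 0.63 and the neuron median at 0.77.

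Transcript tables gave the split of each member between annotated isoforms. In 28 of 32 members the same transcript led in both libraries, and 7 members had only 1 transcript. In 7 of the 25 others the leading transcript held at least 90% of the gene's TPM in both libraries. Gata1-201 was among these, with 96.0% in replicate 1 and 100% in replicate 2. It starts 10161 bases downstream of Gata1-202, whose distal start had 0.17 TPM in replicate 1 and was listed at 0 in replicate 2. Slc4a1-201 held 100% in replicate 1 and 97.8% in replicate 2, and Sptb-202, the 8084-base form of beta-spectrin, 94% in replicate 1 and 94.6% in replicate 2, with 773 and 741 counts against 65 and 55 for the 10394-base form Sptb-201.

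Lmo2 had a similar split in both pools. Its distal start group held 58.7% in replicate 1 and 59.4% in replicate 2 of TPM, and a proximal group, 12143 bases downstream, 32.5% in replicate 1 and 31.7% in replicate 2. The split of Tal1 differed: Tal1-201 held 46.5% in replicate 1 and 81.8% in replicate 2. The remainder was Tal1-204, which starts 3082 bases downstream and had 150 counts in replicate 1 and 32 in replicate 2. Tal1-204 was at 1.98 TPM in replicate 1 and 0.48 in replicate 2, and Tal1-201 at 1.72 TPM in replicate 1 and 2.16 in replicate 2. These isoform values are estimates on few counts, and whether the Tal1 difference lay in 1 form was not tested.

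Alas2-201 held 74.7% in replicate 1 and 62.4% in replicate 2, and Alas2-202, from a nearby start, 22.8% in replicate 1 and 31.9% in replicate 2. Ank1 was divided among 17 annotated transcripts, and no single one held more than 22.3% in either library. The mean share of its leading form, Ank1-213, was 20.8% from TPM and 8.47% from posterior mean TPM. A start group 60255 bases from the most upstream start had 39.9% in replicate 1 and 57.5% in replicate 2 of Ank1 TPM. The leading form of Epb41 held 26.0% in replicate 1 and 31.4% in replicate 2. The coding form Epb42-202 held 28.5% of Epb42 TPM in replicate 1 and 28.2% in replicate 2, and all coding forms together 36.2% in replicate 1 and 35.2% in replicate 2. The noncoding Epb42 form of 2513 bases, at 20.0% in replicate 1 and 33.4% in replicate 2, led in replicate 2. Taken from expected counts, which are not corrected for length, the mean share of Epb42-202 was 48.9% in place of 28.4%.

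Transcripts annotated with a retained intron made up 37.4% of Ppox TPM in replicate 1 and 39.1% in replicate 2. Their share of Tfrc was 24.9% in replicate 1 and 31.5% in replicate 2. Urod had 20.8% in replicate 1 and 17.4% in replicate 2, and Slc25a37 19.0% in replicate 1 and 21.3% in replicate 2. Uros and Kel also passed 10% in both libraries, which makes 6 of 32 members, beside 17.3% of 12634 detected protein-coding genes. For Tfrc the retained-intron form Tfrc-204 was at 6.42 TPM in replicate 1 and at 13.84 TPM in replicate 2, and the coding form Tfrc-201 at 24.69 TPM in replicate 1 and 35.64 in replicate 2.

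**Figure D4:**
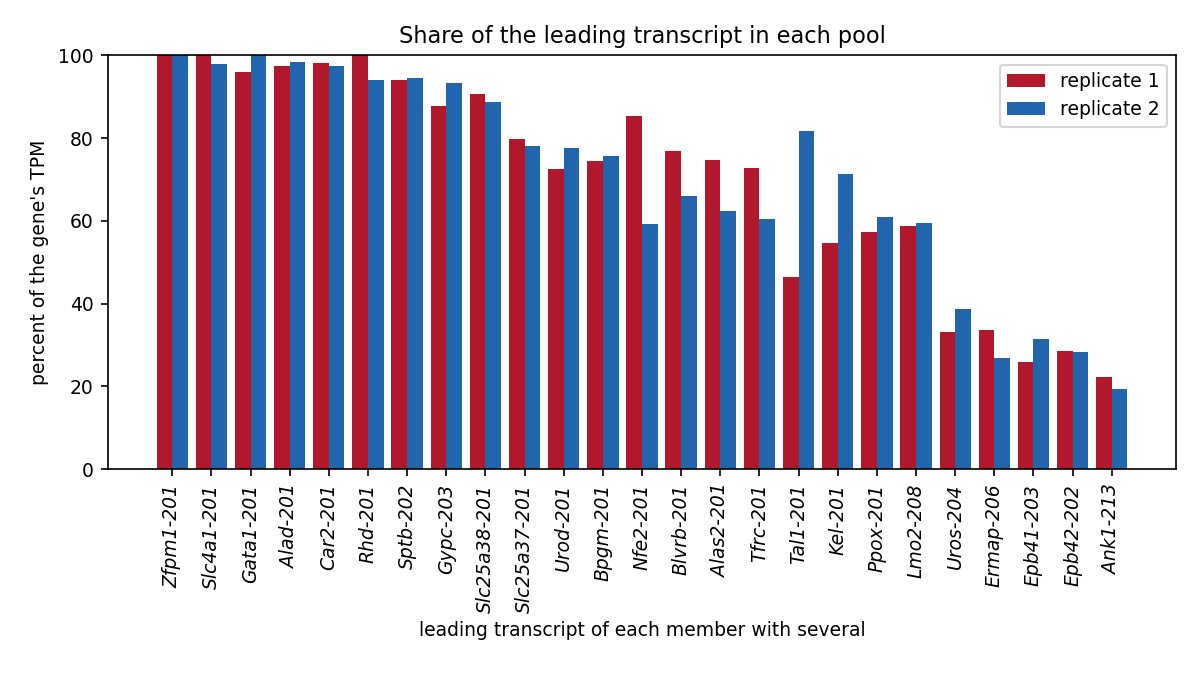
Percent of a gene's TPM in its leading transcript, in replicate 1 and replicate 2, for the 25 members with several annotated transcripts. Tal1 (46.5% and 81.8%) and Nfe2 (85.2% and 59.2%) differ most between the pools.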

How the data were processed

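Total RNA from 2 pools of mouse hindbrain was analysed from 1 gene table and 1 transcript table per library. Per the file headers, the deposited counts are expected counts (estimates that need not be whole). TPM, posterior mean TPM and FPKM were deposited beside them, and the percent of a gene in each isoform is given per the file headers. Isoform percents printed here come from TPM instead. The deposited notes name mm10 as assembly and M4 as annotation. For aligner, quantification program and strand setting: not given in the sources used here. Spike-ins took 13.0% and 7.82% of TPM in replicates 1 and 2, and SMARTer Ultra Low is the kit manual given per the labels.

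Of 43346 gene identifiers, version removed, 42462 had a match in GENCODE M21. Expected counts of annotated genes, without spike-ins and tRNAs, were rounded to whole numbers. Ratios (log2, replicate 1 over replicate 2) used CPM after TMM scaling, prior count 2, in edgeR 4.0.16 (R 4.3.3), for genes with a CPM of at least 1 in both libraries. Intervals are exact (Clopper-Pearson, 95%) on the share of counts in replicate 1. Detection was 1 TPM in both libraries. No test between conditions was possible. Promoters came from RefSeq (GRCm38.p6). Transcript starts within 500 bases were joined into 1 start group. All members are named; from other lists at most the 4 highest and the 2 with the largest ratio are named with values, beside neighbours and exceptions chosen after their values were seen. Members and lists were chosen with earlier results of these data known. The ratio method was tested on simulated data with changes larger than those of the members and a spread below the 0.203 of these data. That test does not cover ratios of the size reported here. Alternatives were detection thresholds, FPKM, posterior mean TPM, DESeq2 1.42.0 size factors, total counts, spike-in scaling, prior counts, TPM ratios, no filter and each library left out. Intervals were computed with scipy 1.17.1 under Python 3.11.15, and figures drawn with matplotlib 3.10.9. Values of some genes of the other lists are not reported here.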

Additional observations from a re-analysis of the deposited data

How the results depend on the processing

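No paired analysis was possible because the series has 1 group. The number of members at 1 TPM or more in both libraries was 32, and lay between 29 (at 2 TPM) and 32 under the other thresholds and units. Leaving out either library could only give 32, since all 32 passed in both, and so is no check. The median ratio and the counts past 2-fold moved beyond the tolerance (0.13 for the median, 1.5 times for counts) under spike-in scaling only, among the scalings, prior counts, TPM ratios and filter tried. With spike-ins the median of all tested genes moved by -0.76 (log2), the median of the members became -0.79, 31 of 32 members were higher in replicate 2, 0 passed 2-fold toward replicate 1 (Tfr2 at 0.45), and 11 passed it toward replicate 2, as did 21.9% of tested genes. Directions of members between the pools are therefore relative to the typical gene. With ratios taken from TPM, whose total includes the spike-ins, the median of the members was -0.13, beside -0.03 with TMM scaling. With these TPM ratios 7 of 32 members moved by more than their counting interval, among them Ermap (-0.85), Tfrc (-0.79), Alas2 (-0.41) and Kel (0.35). The share of the leading transcript moved by more than the SD in 13 of 24 members when taken from expected counts and in 9 of 24 from posterior mean TPM. Summed levels by role moved in 5 of 5 roles when FPKM replaced TPM, which is a change of unit and so no check of these levels. Few counts limit Tfr2 and Zfpm1, whose intervals are wide. Leaving out a library gives no ratio.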
